A study of Mus musculus with 18 samples.

Results

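Skeletal muscle of MKR mice was compared with skeletal muscle of wild-type (WT) mice, and the comparison rests on the 6 muscle arrays, 3 MKR and 3 WT, out of 18 arrays of the series. The muscle arrays were chosen by their tissue and genotype labels, and every gene on them was described with the muscle arrays alone. MKR mice carry a mutated IGF-1 receptor in skeletal muscle, and both the MKR and the WT mice were males of the FVB/N background, aged 10 weeks, on the same rodent diet with free access and a daily cycle of light and dark. Each of the 6 mice gave 1 array of muscle, 1 of liver and 1 of fat. Which skeletal muscle was taken is not given in the sources used here, the MKR mice are 1 transgenic line, and the time of day of collection is not given either.

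The IGF-1 receptor and the insulin receptor are related tyrosine kinases that pass signals through Irs1 and Irs2 to phosphatidylinositol 3-kinase and Akt, which in muscle bring the glucose transporter Slc2a4 to the cell surface and promote glycogen and protein synthesis. The receptor in MKR mice is known as a kinase-dead human IGF-1 receptor driven by the muscle creatine kinase promoter, which pairs with the mouse receptors of both kinds and blocks them, so that the mice are insulin resistant in muscle and become diabetic. Muscle fibres are fast or slow by the myosin they carry, and slow fibres hold more mitochondria than most fast ones.

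Values are log2 intensities, so that a difference of 1 is a factor of 2, and changes are MKR minus WT. With limma's moderated test on the 6 arrays and Benjamini-Hochberg adjustment over 20358 genes, 80 genes (0.393%) had an adjusted p under 0.05, 19 of them (0.0933%) higher and 61 (0.3%) lower in MKR muscle. These 80 genes are called below, and in all 80 the 3 MKR arrays lay on one side of the 3 WT arrays. The groups did not overlap in 4456 of all genes (21.9%), 2147 of them (10.5%) higher and 2309 (11.3%) lower in MKR. An unadjusted p under 0.05 was reached by 3216 genes (15.8%), 1362 (6.69%) higher and 1854 (9.11%) lower. The change exceeded 2-fold in 27 called genes, 7 higher and 20 lower, and the smallest called change was 1.43-fold. More of the called genes were lower than higher, while the median change of all genes was 0.004 and 49.0% of all genes had a lower mean in MKR. The share of lower calls, 61 of 80, was smaller after quantile normalization within muscle (33 of 50) and with the values as deposited (20 of 31). Leaving out MKR replicate 2 lowered the count to 12, and the other single arrays gave 19 (without MKR replicate 3), 26 (without MKR replicate 1), 32 (without WT replicate 2), 39 (without WT replicate 1) and 71 (without WT replicate 3). Genes that were called whichever array was left out were Igf1r, Nr4a3 and Htra4 among those higher in MKR and Me3, Mybph, Aldh1a1, Ddah1, Slc4a10, Prss23, Cdh4 and Msl3 among those lower.

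**Figure D1:**
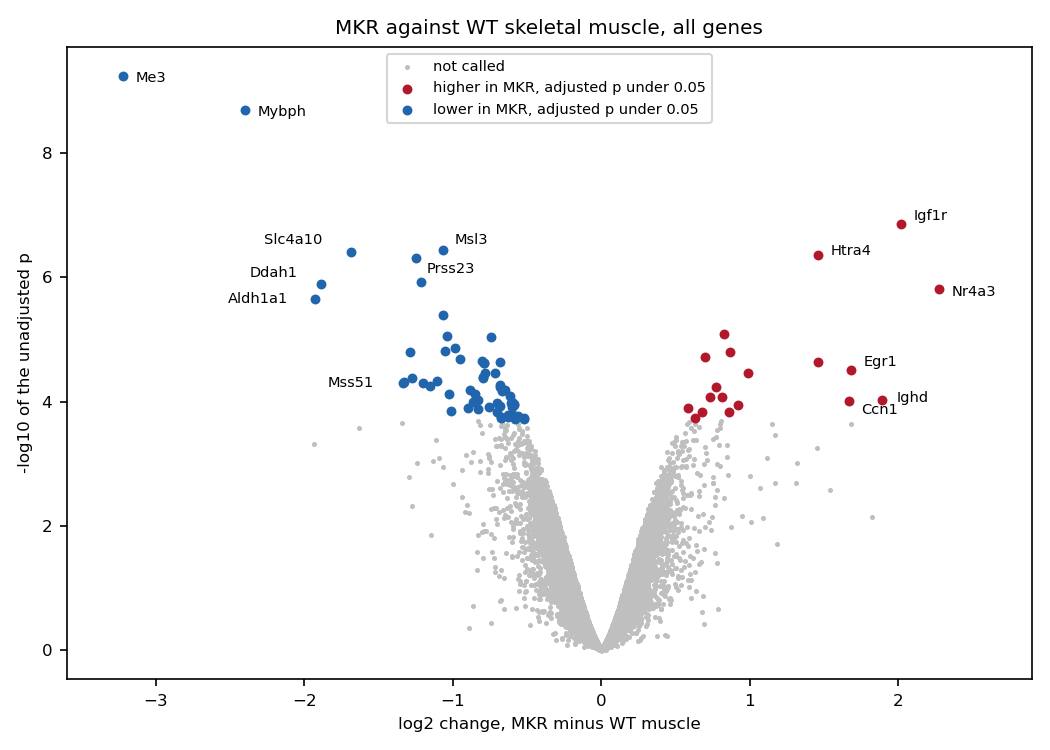
Log2 change in muscle (x axis, MKR minus WT) against the -log10 of the unadjusted p from limma (y axis), 1 point per gene for 20358 genes. Red points are the 19 genes higher and blue points the 61 genes lower in MKR muscle at an adjusted p under 0.05, with Me3 at -3.22 and Nr4a3 at 2.27 as the extremes.

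The arrays carried the transcripts of the labelled tissue. The mean level of 15 skeletal muscle fibre markers was 11.4 to 11.7 in muscle, against 5.26 to 5.49 in liver and fat. Correlations between muscle arrays over all genes were 0.987 to 0.990 within MKR, 0.983 to 0.989 within WT and 0.979 to 0.986 between them, and the first principal component, with 36.2% of the variance, separated the genotypes. Liver transcripts stood out in MKR replicate 1 and WT replicate 1, where Alb, which encodes serum albumin, read 8.97 and 9.89, against 5.29 and 6.14 in MKR replicates 2 and 3 and 7.73 and 5.46 in WT replicates 2 and 3. Without these arrays, which leaves 4, limma called 44 genes, 21 of them among the 80, with 27 higher and 17 lower, so that the excess of lower calls was not seen there.

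Igf1r, the mouse gene of the mutated receptor, was measured at 8.53, 8.32 and 8.51 in MKR muscle, against 6.75, 6.14 and 6.42 in WT muscle. Its level rose by 2.02 (SE 0.15, adjusted p = 9.6e-04 from limma), a factor of 4.05. The increase was uneven over the gene. Of its 23 probe sets 15 were higher in every MKR array than in any WT array, by up to 6.16, while the other 8 differed by -0.36 to 0.41. The brightest of them read 12.65, 12.79 and 12.75 in MKR, against 6.85, 6.29 and 6.58 in WT. In limma on all 18 arrays, where fat and liver share the estimate of the spread, Igf1r kept its change of 2.02 in muscle but had an adjusted p of 0.17. Whether these probe sets read the transcript of the human transgene or that of the mouse gene was not tested. Insr, the insulin receptor gene, had a change of 0.003 (SE 0.12).

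Of the 43 measured genes of insulin and IGF-1 receptor signalling, 2 rose, 1 fell and 40 did not pass the test. Beside Igf1r, the ligand Igf2 was higher in MKR muscle, at 6.91, 6.98 and 7.03 against 6.32, 6.23 and 6.27 in WT, a rise of 0.70 (SE 0.09, adjusted p = 0.019). The groups are separate and the spread within each is small, and all 11 probe sets of Igf2 were higher in MKR. Igfbp5, an IGF-binding protein that muscle secretes, fell by 0.86 (SE 0.14, adjusted p = 0.038), with 8.83, 8.71 and 8.52 in MKR and 9.82, 9.40 and 9.43 in WT. The receptor substrate Irs2, read by 1 probe set, was at 6.68, 7.24 and 6.85 in MKR, against 6.41, 5.99 and 5.83 in WT, without overlap (change 0.85, adjusted p = 0.078). The adaptor Grb14, which binds and inhibits the insulin receptor, was named after its values were seen. It stood at 5.29, 5.19 and 5.42 in MKR and 7.30, 6.10 and 6.22 in WT (change -1.24, adjusted p = 0.085). Over the list 29 genes had a lower mean in MKR, 18 of them with no overlap, and the median change was -0.17, against 0.004 over all genes. Among 7 genes of glucose uptake and phosphorylation 0 were called and 2 had an unadjusted p under 0.05. These were the transporter gene Slc2a4 (7.97, 7.86 and 8.02 in MKR, against 8.20, 8.18 and 8.13 in WT) and the hexokinase gene Hk2 (8.78, 8.93 and 8.90 in MKR, against 9.08, 9.09 and 9.70 in WT), both separate between the groups, with changes of -0.22 and -0.42.

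**Figure D2:**
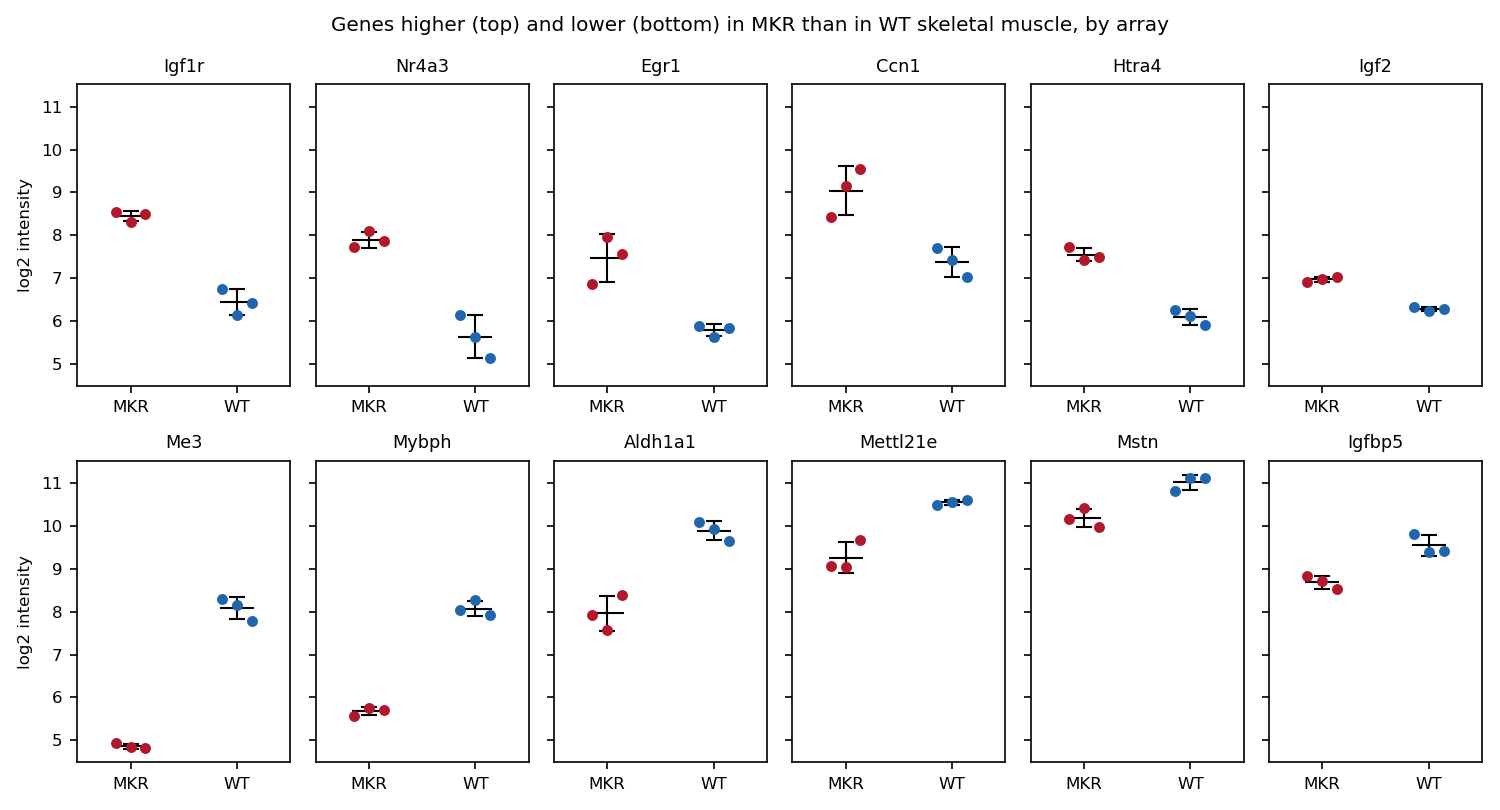
Log2 intensity (y axis) of 12 called genes in each muscle array, with MKR left and WT right in each panel; points are arrays, the long bar is the mean and the whisker the SD (n = 3). The groups do not overlap in any panel, and the widest gap is that of Me3, at 4.82 to 4.93 in MKR and 7.79 to 8.30 in WT.

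The largest increase was in Nr4a3, which encodes an orphan nuclear receptor of the NR4A family. NR4A genes are immediate early genes, switched on within minutes by contraction, adrenergic signals and stress, and in muscle they are known as regulators of glucose and fat use. The promoters of the 3 NR4A genes are shown because the family had the highest median change of all lists. They are the RefSeq windows of build GRCm38.p6, from 250 bases before to 50 after the start, for Nr4a3 chr4:48045055-48045354 (plus strand), Nr4a1 chr15:101266596-101266895 (plus strand) and Nr4a2 chr2:57123954-57124253 (minus strand). Capitals mark TGACG, the half-site of the cyclic AMP response element, and CGTCA, the same letters on the other strand.
Nr4a3: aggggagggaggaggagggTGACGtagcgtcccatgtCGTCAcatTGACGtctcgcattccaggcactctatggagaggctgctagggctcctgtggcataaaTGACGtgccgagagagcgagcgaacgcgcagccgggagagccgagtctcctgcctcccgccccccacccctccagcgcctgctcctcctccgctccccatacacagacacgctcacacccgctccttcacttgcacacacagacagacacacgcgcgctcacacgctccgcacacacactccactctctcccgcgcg
Nr4a1: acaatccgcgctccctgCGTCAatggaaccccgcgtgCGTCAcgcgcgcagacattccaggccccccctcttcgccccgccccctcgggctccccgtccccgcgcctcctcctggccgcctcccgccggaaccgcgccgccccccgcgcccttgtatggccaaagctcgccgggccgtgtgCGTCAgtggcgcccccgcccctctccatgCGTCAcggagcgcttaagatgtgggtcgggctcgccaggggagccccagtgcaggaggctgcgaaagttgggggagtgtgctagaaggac
Nr4a2: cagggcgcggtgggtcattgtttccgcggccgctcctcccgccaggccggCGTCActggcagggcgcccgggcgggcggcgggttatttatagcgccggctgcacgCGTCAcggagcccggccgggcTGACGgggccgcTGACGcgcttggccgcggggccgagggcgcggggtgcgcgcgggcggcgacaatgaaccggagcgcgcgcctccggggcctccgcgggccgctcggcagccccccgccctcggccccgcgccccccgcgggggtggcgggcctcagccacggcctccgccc
Each of the 3 windows held 4 such half-sites, 3 as TGACG and 1 as CGTCA for Nr4a3, 0 and 4 for Nr4a1, and 2 and 2 for Nr4a2. At least 1 half-site was found in 20.8% and at least 4 in 0.231% of 32851 promoter windows of the same length. The window of Ccn1, a called immediate early gene, held 1. Of 28 immediate early and stress genes with windows, 17 had at least 1 half-site in any of their windows. This count is by gene, over all windows of the gene, and cannot be set against the 20.8%, which is by window. The share by gene over all genes was not computed. The match of letters is a description of the windows, and binding was not measured.

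Nr4a3 read 7.73, 8.10 and 7.86 in MKR muscle, against 6.14, 5.61 and 5.13 in WT muscle, and rose by 2.27 (SE 0.22, adjusted p = 0.0032), a factor of 4.83. All 3 MKR arrays lay far above the WT arrays, and all 10 of its probe sets were higher in MKR without overlap. Nr4a2 was at 7.26, 7.70 and 7.74 in MKR, against 7.05, 6.79 and 5.57 in WT, and did not pass the test (change 1.09, SE 0.32, adjusted p = 0.16). For Nr4a1 the groups overlapped, with 9.19, 9.76 and 9.08 in MKR and 9.32, 9.09 and 7.70 in WT (change 0.64, adjusted p = 0.43). WT replicate 3 had the lowest level of each of the 3 genes.

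Egr1 and Ccn1 were the other called immediate early genes. Of 38 measured members, 2 rose, 0 fell and 36 did not pass the test, 29 had a higher mean in MKR, 15 had an unadjusted p under 0.05 and all 15 were higher, and the median change was 0.23. Egr1, a zinc finger transcription factor, read 6.87, 7.97 and 7.56 in MKR, against 5.89, 5.62 and 5.84 in WT, and rose by 1.68 (SE 0.23, adjusted p = 0.024). Of the 3 probe sets of Egr1, 2 were higher in MKR without overlap, by 2.27 and 3.05. The remaining 1 was slightly lower without overlap, with a difference of -0.27. Ccn1, a secreted matrix protein, read 8.43, 9.16 and 9.54 in MKR, against 7.71, 7.41 and 7.01 in WT, and rose by 1.67 (SE 0.26, adjusted p = 0.038). Neither gene overlaps between the groups, but the MKR arrays are spread widely, and MKR replicate 1 was the lowest of the 3 in both. Atf3, a stress-induced transcription factor, showed the same spread at 7.76, 9.09 and 7.89 in MKR, against 6.74, 6.38 and 6.58 in WT (change 1.68, adjusted p = 0.052). Ier2 was at 4.89, 5.17 and 5.01 in MKR and 4.39, 4.50 and 4.42 in WT (change 0.59, adjusted p = 0.052). Fos and Btg2, named after their values were seen, had changes of 1.45 (adjusted p = 0.070) and 1.54 (adjusted p = 0.12) without overlap. The inducible heat shock gene Hspa1a, read by 1 probe set, was at 8.28, 9.48 and 8.86 in MKR, against 8.16, 7.41 and 7.10 in WT (change 1.31, adjusted p = 0.11). Of the 17 measured heat shock genes 0 were called and 10 had a lower mean in MKR (median change -0.04), among them Hspb7 (change -0.49), Hsph1 (-0.45) and Hspb2 (-0.41), all without overlap. Egr1 and Ccn1 were called in 2 and 1 of the 6 fits without 1 array. In a fit without MKR replicate 1 and WT replicate 1 the median change of the 38 genes was 0.38.

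The largest decrease was in Me3, the mitochondrial malic enzyme that turns malate into pyruvate and makes NADPH from NADP. Its level was 4.93, 4.83 and 4.82 in MKR muscle, against 8.30, 8.15 and 7.79 in WT muscle. The MKR values form a tight group far below WT, and the gene fell by 3.22 (SE 0.13, adjusted p = 1.2e-05), a factor of 9.33. All 17 of its probe sets were lower in MKR, 16 of them without overlap, with differences of up to -6.19. In liver its mean was 4.77 in MKR and 4.86 in WT mice and in fat 4.85 in MKR and 4.95 in WT mice, so that MKR muscle stood at the level of tissues where Me3 read low in both genotypes. The other malic enzymes did not pass the test. Me1, the cytosolic form, averaged 9.82 ± 0.13 in MKR and 9.92 ± 0.14 in WT, and Me2, the NAD-dependent mitochondrial form, 6.33 ± 0.15 in MKR and 6.49 ± 0.19 in WT (SD, n = 3 each). Of 12 measured genes in the list of malic enzymes and NADPH producers, Me2 included, Me3 alone was called, and 11 had a lower mean in MKR (median change -0.14).

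Mybph had the second largest decrease. It encodes myosin-binding protein H, a thick filament protein of skeletal muscle. Its level was 5.57, 5.75 and 5.70 in MKR, against 8.03, 8.26 and 7.93 in WT, and it fell by 2.40 (SE 0.11, adjusted p = 2.1e-05), a factor of 5.28. The groups are far apart with a spread of under 0.4 in each, and all 7 probe sets were lower in MKR without overlap. Of 35 measured genes of the sarcomere and Z disc, 2 fell, 0 rose and 33 did not pass the test, and the median change was -0.07. The other one that fell was Mical2, an oxidase that takes actin filaments apart, at 8.43, 8.13 and 8.43 in MKR and 9.11, 9.53 and 9.80 in WT (change -1.15, SE 0.17, adjusted p = 0.029). Mybph was called in every fit without 1 array, Mical2 in 2 of the 6.

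The genes that define fibre types were not called. Of 9 myosin heavy chain genes 0 were called and 1 had an unadjusted p under 0.05, Myh1 of fast type 2X fibres, at 11.45, 11.51 and 11.61 in MKR, against 11.99, 11.66 and 12.13 in WT (change -0.40, adjusted p = 0.18). Myh4 of fast type 2B fibres was the same to within 0.2 in all arrays, with 12.59, 12.60 and 12.66 in MKR and 12.60, 12.59 and 12.76 in WT. Of 13 fast fibre contractile genes 0 were called and 1 had an unadjusted p under 0.05, Mylpf, the fast regulatory light chain (change -0.26, adjusted p = 0.20). Slow fibre genes varied greatly within both groups. Myh7, the slow myosin heavy chain, read 5.82, 7.03 and 8.80 in MKR muscle, against 9.04, 6.37 and 6.16 in WT muscle. Myl3, a slow light chain, read 5.85, 7.60 and 9.43 in MKR, against 9.99, 6.99 and 6.61 in WT. MKR replicate 3 and WT replicate 1 were high in both genes and the groups overlap from end to end. The mean level of 14 slow fibre contractile genes was 7.79, 8.70 and 9.32 in MKR and 9.44, 7.88 and 8.22 in WT. Their median change was 0.10, with 0 called and 1 at an unadjusted p under 0.05, and it was 0.56 without WT replicate 1. With the slow fibre level of each array as a covariate, limma called 96 genes, 70 of them among the 80.

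Several genes that are tied to muscle size were lower in MKR. Mstn, the secreted factor that limits muscle growth, read 10.16, 10.41 and 9.98 in MKR, against 10.81, 11.12 and 11.13 in WT, and fell by 0.83 (SE 0.14, adjusted p = 0.040). Mettl21e, a lysine methyltransferase of muscle fibres, read 9.07, 9.04 and 9.68 in MKR, against 10.49, 10.56 and 10.61 in WT, and fell by 1.29 (SE 0.16, adjusted p = 0.017). Mss51, a mitochondrial protein of skeletal muscle, read 9.66, 8.91 and 9.61 in MKR, against 10.93, 10.75 and 10.51 in WT, and fell by 1.34 (SE 0.19, adjusted p = 0.028). None of the 3 overlaps between the groups, and WT is the tighter group for Mettl21e and Mss51. They were called in 1 (Mstn), 3 (Mettl21e) and 1 (Mss51) of the 6 fits without 1 array. They were the called members of the atrophy and protein breakdown list, in which 27 of 30 genes did not pass the test and 0 rose. Of the 30 genes, 3 were higher and 8 lower at an unadjusted p under 0.05, the called ones included. Mettl21c went the opposite way to Mettl21e, higher in MKR without overlap (change 0.54, adjusted p = 0.090). The ubiquitin ligases of atrophy did not pass, with Fbxo32 (named after its values were seen) at 9.43, 9.50 and 9.75 in MKR, against 9.30, 8.53 and 8.37 in WT (change 0.82, adjusted p = 0.13), and Trim63, named likewise, at 7.83, 8.53 and 7.94 in MKR, against 8.21, 7.51 and 7.33 in WT (change 0.42, adjusted p = 0.43). Of 28 genes of denervation and the neuromuscular junction 0 were called, 4 were higher and 2 lower at an unadjusted p under 0.05. The neurotrophic factor Gdnf came closest, at 6.07, 5.84 and 5.69 in MKR and 5.21, 5.28 and 5.23 in WT (change 0.62, adjusted p = 0.055). Of 29 myogenic and satellite cell genes only Cdh4, the adhesion protein R-cadherin, was called, with 6.08, 6.01 and 6.01 in MKR, against 7.42, 7.28 and 7.04 in WT (change -1.21, SE 0.11, adjusted p = 0.0029). Most of this list went the other way, with a higher mean in MKR in 20 genes and a median change of 0.04. At an unadjusted p under 0.05, 5 were higher and 1 lower. The myogenic factor Myf6 had a change of 0.57 without overlap (adjusted p = 0.079).

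Among the other large decreases were enzymes and transporters. Aldh1a1, which makes retinoic acid from retinaldehyde, read 7.93, 7.58 and 8.40 in MKR, against 10.09, 9.93 and 9.66 in WT (change -1.92, SE 0.19, adjusted p = 0.0041). Ddah1, which breaks down methylarginines that inhibit nitric oxide synthase, read 6.08, 6.16 and 6.52 in MKR, against 8.54, 7.95 and 7.93 in WT (change -1.89, SE 0.18, adjusted p = 0.0029). Slc4a10, a bicarbonate transporter, read 4.97, 4.85 and 4.89 in MKR, against 6.25, 6.76 and 6.74 in WT (change -1.68, SE 0.14, adjusted p = 0.0014). In each of them the highest MKR array lay more than 1 below the lowest WT array. The rest of the 20 largest decreases ran from -1.33 to -1.01. They held the signalling genes Map2k6, a kinase that activates p38, and Sfrp4, a secreted Wnt-binding protein, and the chromatin genes Msl3, of the MSL acetyltransferase complex, and Smarca1, an ISWI remodeller. They also held Kcng4, a subunit of voltage-gated potassium channels, Prss23, a secreted serine protease, Ttll1, a tubulin glutamylase, Odf3l2 and Sh3rf2, as well as Trim13, a ubiquitin ligase of the endoplasmic reticulum, and Ncoa4, a receptor for the breakdown of ferritin, which had 2 probe sets each. Acsl3, which activates long-chain fatty acids, was the called member of fatty acid uptake and activation, with 8.72, 8.63 and 8.72 in MKR and 9.39, 9.36 and 9.70 in WT (change -0.80, adjusted p = 0.026).

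Of the 19 genes higher in MKR 15 met the rule for named genes. Htra4, a secreted serine protease, read 7.71, 7.42 and 7.50 in MKR, against 6.25, 6.12 and 5.89 in WT, and rose by 1.46 (SE 0.12, adjusted p = 0.0014). It was among the most stable calls, with groups more than 1 apart. Elovl7, a fatty acid elongase, rose by 0.99 (adjusted p = 0.024), the adhesion scaffold Nedd9 by 0.87 (adjusted p = 0.017), the aquaporin Aqp12 by 0.83 (adjusted p = 0.012) and the phospholipase Plaat3 by 0.77 (adjusted p = 0.029). H60b, a ligand of the natural killer cell receptor NKG2D, rose by 0.92 (adjusted p = 0.039), while the protocadherin Pcdhgc5, the cytochrome P450 Cyp4f39 and the tetraspanin Tspan13 rose by 0.59 to 0.73. Ighd, the constant region gene of immunoglobulin D, was read by 1 probe set and rose by 1.89, with a wide spread in MKR (4.93, 6.43 and 5.83, against 3.81, 3.81 and 3.91 in WT).

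Some called genes were neighbours on a chromosome, by their order in the RefSeq annotation of GRCm38.p6 among measured genes. Of the 80 called genes 5 pairs lay within 5 measured genes of each other. How many such pairs other sets of 80 genes would hold was not tested. Prss23 is next to Me3 on chromosome 7 and was at 6.61, 6.86 and 6.63 in MKR, against 7.94, 8.04 and 7.85 in WT (change -1.25, adjusted p = 0.0014), with 4 of its 6 probe sets lower without overlap and 1 higher without overlap. Msl3, Arhgap6 and Hccs lie together on chromosome X and were all lower in MKR. Msl3 had 8.25, 8.22 and 8.31 in MKR, against 9.31, 9.36 and 9.31 in WT (change -1.07, adjusted p = 0.0014), and all 13 of its probe sets were lower without overlap. Hccs, the synthase that attaches haem to cytochrome c, fell by 0.95 (adjusted p = 0.019) and Arhgap6 by 0.59 (adjusted p = 0.039). Ccn1 and Ddah1 are next to each other on chromosome 3 and went in opposite directions, 1.67 and -1.89, as did Ighd and Ighm on chromosome 12 (1.89 and -0.68).

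In the lists of the citric acid cycle, oxidative phosphorylation, mitochondrial fatty acid oxidation and pyruvate dehydrogenase 0 genes were called, and the median changes were small and negative. The 15 skeletal muscle fibre markers also had a negative median change, -0.12, so that a small decrease was not particular to these lists. All 16 measured genes of the citric acid cycle had a lower mean in MKR, 7 of them with an unadjusted p under 0.05 and the same number without overlap, and the median change was -0.22. Ogdh, of the oxoglutarate dehydrogenase complex, read 10.26, 10.14 and 10.33 in MKR, against 10.58, 10.47 and 10.64 in WT (change -0.32, adjusted p = 0.17). Sdha, the flavoprotein of succinate dehydrogenase, read 10.69, 10.57 and 10.69 in MKR, against 10.99, 10.91 and 10.84 in WT (change -0.26, adjusted p = 0.22). In oxidative phosphorylation 62 of 74 genes had a lower mean, 24 without overlap and 18 with an unadjusted p under 0.05, with a median change of -0.13 and -0.40 for Ndufb10 of complex I (adjusted p = 0.093). Of 24 genes of mitochondrial fatty acid oxidation 20 had a lower mean and 9 an unadjusted p under 0.05 (median -0.18). They included Cpt2, which hands fatty acids to the matrix, at 8.09, 8.19 and 8.46 in MKR and 8.95, 8.64 and 8.73 in WT (change -0.53, adjusted p = 0.11), and the carnitine carrier Slc25a20 (change -0.57, adjusted p = 0.11). The pyruvate dehydrogenase list had a median of -0.14 over 14 genes, with 0 called and 4 lower at an unadjusted p under 0.05, and its acetyltransferase Dlat had a change of -0.48 (adjusted p = 0.078). Of 26 glycolytic genes 0 were called, 2 were higher and 3 lower at an unadjusted p under 0.05, and the median change was -0.05.

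Catabolism of branched-chain amino acids (BCAA) starts with a transaminase and the ketoacid dehydrogenase and ends in the citric acid cycle. Of 8 genes of these initial steps 0 were called and 7 had a lower mean (median -0.26). Dbt, the acyltransferase of the dehydrogenase, read 7.16, 7.18 and 7.29 in MKR, against 8.11, 7.64 and 7.51 in WT (change -0.55, adjusted p = 0.14), and Bcat2, the mitochondrial transaminase, 7.35, 7.36 and 7.55 in MKR and 7.69, 7.38 and 6.98 in WT (change 0.07). Of 18 genes of the later steps 0 were called, 16 had a lower mean and 8 an unadjusted p under 0.05 (median -0.23).

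The levels of these lists varied with the slow fibre genes in part of the arrays. WT replicate 1, which had the highest slow fibre level, also had the highest mean level of the citric acid cycle genes, with 10.54, against 10.39 and 10.25 in WT replicates 2 and 3, while the MKR arrays had 10.15, 10.17 and 10.23. MKR replicate 3, the highest MKR array in both, had a slow fibre level of 9.32, against 9.44 in WT replicate 1. Without WT replicate 1 the medians were -0.14 for the citric acid cycle, -0.07 for oxidative phosphorylation, -0.17 for fatty acid oxidation, and -0.14 and -0.10 for the initial and later steps of BCAA catabolism. With the slow fibre level as a covariate they were -0.23, -0.14, -0.19, -0.27 and -0.24 in the same order. In whole muscle fewer cells or fibres of a type and less RNA per cell cannot be told apart.

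**Figure D3:**
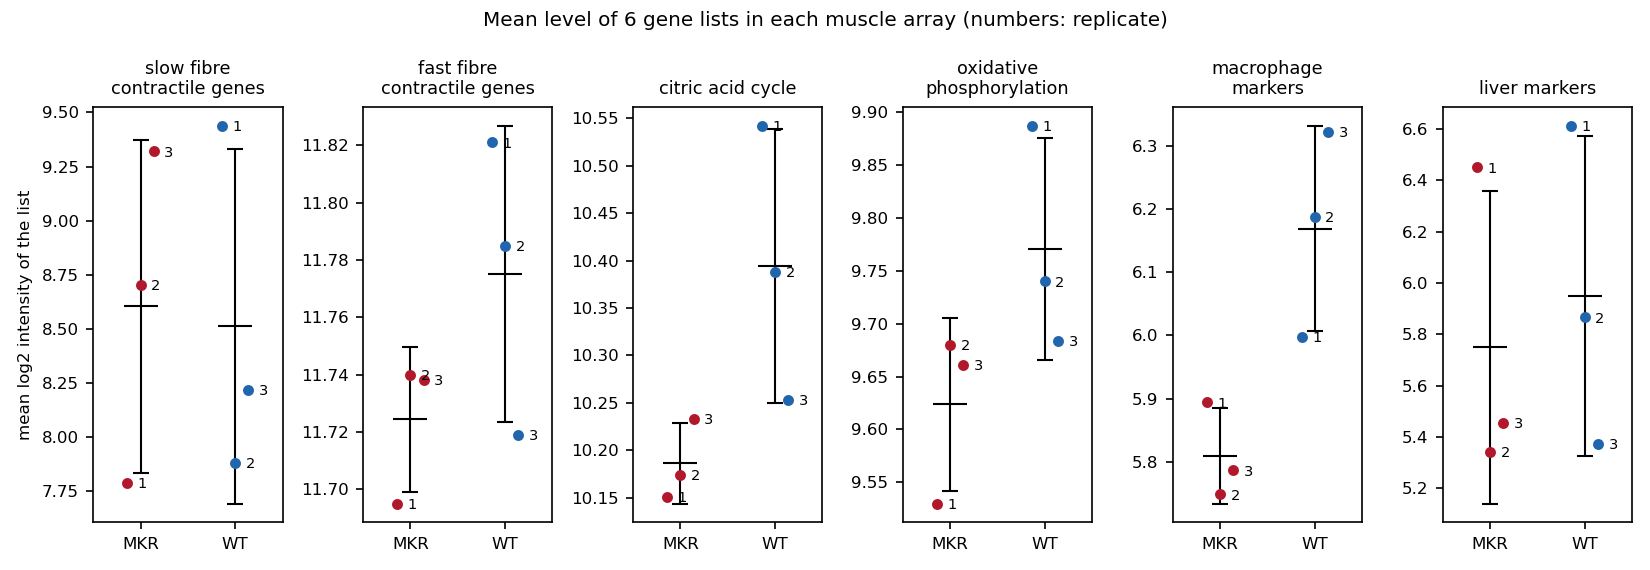
Mean log2 intensity (y axis, scaled to each list) of 6 gene lists in each muscle array, with MKR left and WT right; points carry the replicate number, the long bar is the mean and the whisker the SD (n = 3). Slow fibre genes spread over 7.79 to 9.32 in MKR and 7.88 to 9.44 in WT, while macrophage markers lie at 5.75 to 5.89 in MKR and 5.998 to 6.32 in WT.

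A few further metabolic genes came close to the threshold. Nmrk2, the nicotinamide riboside kinase of muscle, read 11.66, 11.53 and 11.43 in MKR, against 10.72, 10.55 and 9.42 in WT (change 1.32, adjusted p = 0.084). Nox4, an NADPH oxidase, read 5.33, 5.23 and 5.59 in MKR, against 6.35, 6.10 and 7.04 in WT (change -1.12, adjusted p = 0.064). Thrsp, a regulator of lipid synthesis that responds to thyroid hormone and carbohydrate, read 7.42, 7.23 and 7.33 in MKR, against 7.99, 7.78 and 8.13 in WT (change -0.64, adjusted p = 0.052). In each of these genes the groups are separate, and WT replicate 3 is the array farthest from MKR. Of 16 genes of glycogen synthesis and breakdown 0 were called and 3 had an unadjusted p under 0.05, all lower, among them the synthase gene Gys1 (9.14, 9.19 and 9.26 in MKR, against 9.75, 9.56 and 9.49 in WT, change -0.40, adjusted p = 0.12).

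Markers of other cell types in the muscle were compared as well, with 0 called in any of these lists. Of 15 macrophage markers 13 had a lower mean in MKR, 7 of them without overlap, and 8 had an unadjusted p under 0.05, all lower (median -0.32). Their mean level was 5.89, 5.75 and 5.79 in MKR, against 5.998, 6.19 and 6.32 in WT. Cd163, a haemoglobin scavenger receptor of resident macrophages, read 5.98, 5.68 and 5.50 in MKR, against 6.34, 6.32 and 6.77 in WT (change -0.76, adjusted p = 0.077), and the lysosomal protein gene Cd68 6.24, 6.49 and 6.26 in MKR, against 6.58, 7.20 and 7.40 in WT (change -0.73, adjusted p = 0.12). Adgre1 and the complement genes C1qa, C1qb and C1qc read under 6.2 in every array of both groups. Of 12 adipocyte markers all had a higher mean in MKR and 6 an unadjusted p under 0.05 (median 0.22), with a mean level of 6.71 to 7.09 in MKR and 6.63 to 6.76 in WT, so that the groups overlap. The 6 were Lep, Retn, Fabp4, Car3, Slc7a10 and Aqp7, with changes of 0.29 to 0.69. The others changed by 0.04 (Cfd) to 0.15 (Cidec), among them Adipoq and Plin1 by 0.06 each. Smooth muscle and pericyte markers were higher in 9 of 10 (median 0.21) and endothelial markers in 11 of 12 (median 0.17). Tendon markers were lower in 8 of 10 (median -0.36), at 5.65 to 6.42 in MKR and 6.06 to 6.43 in WT. The part of these cells in the called genes was not tested. Positional genes of the Hox and limb lists, which differ between muscles of the body, had a median change of -0.06 over 27 genes. Of these 0 were called, 2 had an unadjusted p under 0.05, and 17 had a lower mean in MKR. Their mean level was 5.77 to 5.80 in MKR and 5.81 to 5.92 in WT, a small difference without overlap. Whether both groups gave the same muscle was not tested. Clock genes had a median change of -0.02 over 18 genes with 0 called and 2 at an unadjusted p under 0.05.

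**Figure D4:**
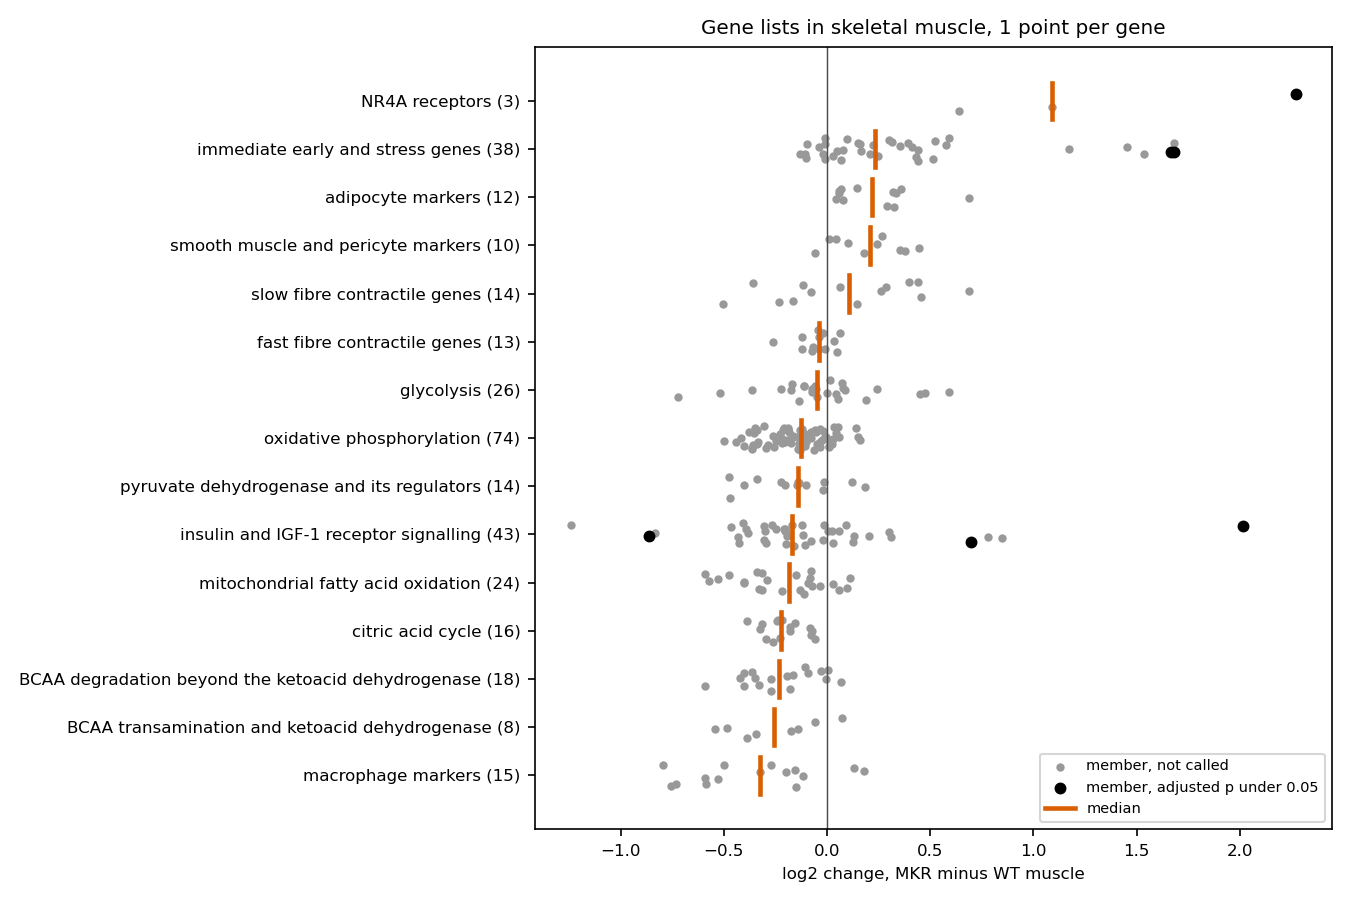
Log2 change in muscle (x axis, MKR minus WT) of each member of 15 gene lists (rows, number of measured genes in brackets); grey points are members that were not called, black points members at an adjusted p under 0.05 and orange bars the list medians. The medians run from 1.09 for the NR4A receptors to -0.32 for macrophage markers, and all points in the mitochondrial lists are grey.

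The muscle changes were set against those in liver and fat of the same mice, by a limma test of each mouse's difference between tissues. The change in muscle differed from that in liver in 32 of 20358 genes (0.157%), 19 of them called in muscle. It differed from that in fat in 3 genes (0.0147%), all called in muscle. The fat array of MKR replicate 1 held epididymis transcripts, with a mean of 8.33 for 15 epididymis and testis markers, against 4.66 to 4.86 in muscle, and without this mouse 4 genes (0.0196%) differed from fat. The difference from fat rests on few mice, since 0 genes passed without MKR replicate 2, MKR replicate 3, WT replicate 1 or WT replicate 2, with 1193 to 1684 genes at an unadjusted p under 0.05, and 2 passed without WT replicate 3. Me3 changed by -3.22 in muscle, -0.09 in liver and -0.10 in fat, and Mybph by -2.40, 0.09 and 0.15, and both differed from liver (adjusted p = 2.2e-05 and 4.6e-04) and from fat (adjusted p = 0.034 and 0.013). Igf1r differed from liver, by 1.96 (adjusted p = 0.0053), while its difference from fat, 1.56, did not pass (adjusted p = 0.65, and 0.10 without the mouse of that fat array). Nr4a3 differed from liver by 2.06 (adjusted p = 0.016), while its difference from fat, 2.25, did not pass (adjusted p = 0.11). Msl3 had -1.07 in muscle, -0.81 in liver and -0.79 in fat, and Egr1 1.68, 2.00 and 1.42, and neither passed the test of a difference between muscle and the other tissues (adjusted p of 0.53 to 0.85).

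**Figure D5:**
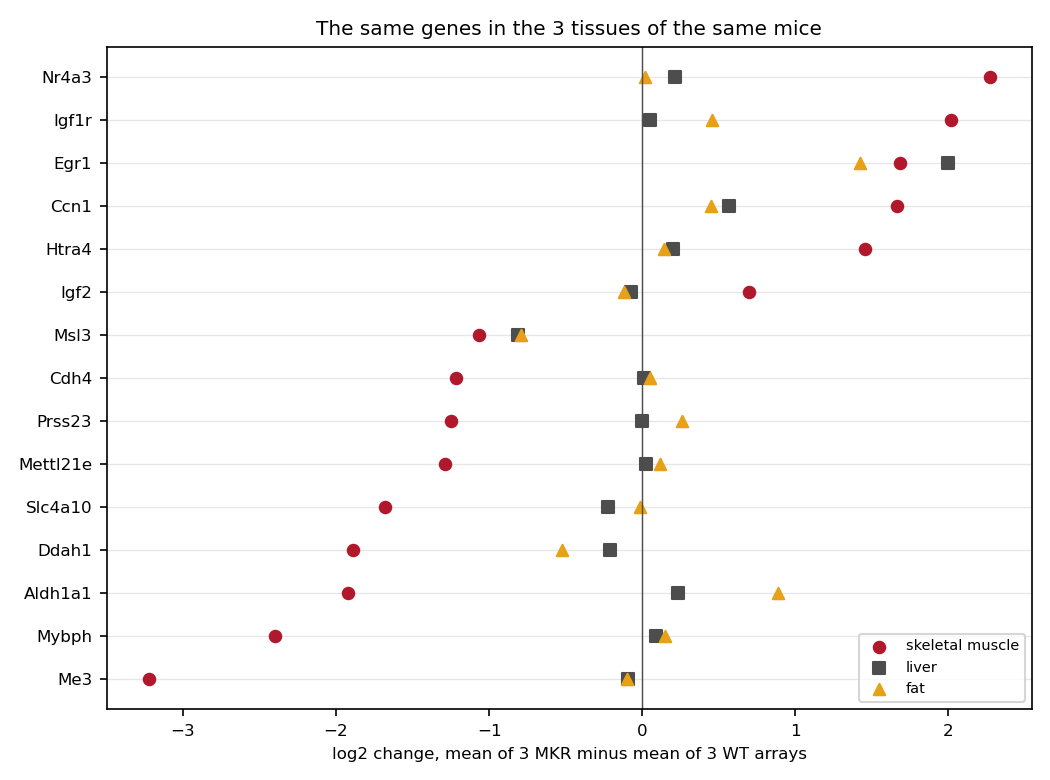
Log2 change (x axis, mean of 3 MKR minus mean of 3 WT arrays) of 15 genes (rows) in skeletal muscle (red circles), liver (grey squares) and fat (yellow triangles) of the same mice. Me3 and Mybph lie near 0 in liver and fat, while Egr1 and Msl3 lie on the same side of 0 in all tissues.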

How the data were processed

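RNA of fat, liver and skeletal muscle of 3 MKR and 3 WT mice was hybridised to Affymetrix Mouse Gene 1.0 ST arrays. RMA normalization in Partek 6.3 is named by the methods and the submitters' processing notes, and the authors deposited its output on a log2 scale. These numbers run from 1.52 to 3.82 for 241419 probe sets, which is the range RMA output has after log2 is applied to it again. That was worked out from the range alone. Each number was therefore raised as a power of 2, giving log2 intensities of 2.87 to 14.15. A gene's value was the mean of its probe sets with exactly 1 symbol (212138 of them, 4672 with several and 24609 with none left out), a median of 8 for 20358 genes. Of 20422 symbols 17626 were current in the RefSeq annotation of GRCm38.p6, 2743 were matched by a synonym and 53 kept. Quantile normalization of all arrays together can hide a shift shared by most genes, and raw intensities and detection calls were not used here, so that whether a low level lies above background is not known.

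MKR was compared with WT in limma 3.58.1 (R 4.3.3), with empirical Bayes moderation on the 6 muscle arrays and Benjamini-Hochberg adjustment over all genes, threshold 0.05. The study's methods name a test of all arrays together, which was run as an alternative. The replicates were separate mice. Replicate numbers did not pair MKR with WT mice (correlations of the deviations from the group means were -0.15, -0.005 and -0.04). Within mice, each muscle array was set against the liver or fat array of the same mouse. Precision is limited by 3 arrays a group, with which an exact permutation test cannot go below p = 0.1.

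Named genes were Igf1r; the 20 largest increases and 20 largest decreases among called genes with separate groups, leaving out olfactory receptors, noncoding small RNAs, RIKEN clones and predicted genes; all members of lists of up to 14 genes; and of longer lists the called members and the 4 with the smallest p. Adgre1, Arhgap6, Btg2, C1qa, C1qb, C1qc, Fbxo32, Fos, Grb14, Hccs, Ighm, Insr and Trim63 fall outside this rule and were chosen after their values were seen. Members and the 49 lists were chosen with earlier results of these data known. No set test was run on the lists. The model was checked on simulated data. Alternatives were all 18 arrays, the replicate number as a block, the median of probe sets, no dim genes (means under 5.51), quantile normalization, centring, the values as deposited, no moderation, trend and robust moderation, array weights, the study's thresholds (unadjusted p under 0.05, fold change over 1.5), probe sets in place of genes and omission of each array. Promoters were taken from RefSeq windows, in which all 3 NR4A symbols were matched. Figures were drawn with matplotlib 3.10.9 in Python 3.11.15.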

Additional observations from a re-analysis of the deposited data

Results flagged for a closer look

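The change in MKR muscle differed from the change in liver of the same mice, by limma's test of that difference, for 15 of the named genes. Higher in muscle relative to liver were Ighd by 2.53 (adjusted p = 0.016), Nr4a3 by 2.06 (adjusted p = 0.016), Igf1r by 1.96 (adjusted p = 0.0053), Aqp12 by 1.37 (adjusted p = 0.034) and Htra4 by 1.26 (adjusted p = 0.043). For Aqp12 and Ighd part of the difference lies in liver, where their changes were -0.55 and -0.64. Lower in muscle relative to liver were Me3 (-3.13, adjusted p = 2.2e-05), Mybph (-2.49, adjusted p = 4.6e-04), Aldh1a1 (-2.16, adjusted p = 0.0049) and Ddah1 (-1.68, adjusted p = 0.016). Smaller differences were found for Slc4a10 (-1.46), Mical2 (-1.41), Mettl21e (-1.32), Prss23 (-1.24), Cdh4 (-1.23) and Smarca1 (-1.14), at adjusted p of 0.015 to 0.042. The change in muscle also differed from the change in fat for Me3 (-3.12, adjusted p = 0.034), Mybph (-2.55, adjusted p = 0.013) and Slc4a10 (-1.67, adjusted p = 0.043). All 3 calls against fat were lost in 4 of the 6 fits without 1 mouse, and 2 genes passed without WT replicate 3. Without the mouse whose fat array held epididymis transcripts, Prss23 passed as well (-1.76, adjusted p = 0.023), and Aldh1a1, which had a change of 0.89 in fat with all mice, did not (adjusted p = 0.13).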

How the results depend on the processing

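The 80 called genes (19 higher, 61 lower) were 41 (10 and 31) with all 18 arrays, 27 of them among the 80. They were 17 (3 and 14) with the median of probe sets, 50 (17 and 33) with quantile normalization, 31 (11 and 20) with the values as deposited, 110 (36 and 74) with trend and robust moderation and 155 (48 and 107) with array weights. The study's thresholds gave 283 (98 and 185) and probe sets in place of genes 10 (4 and 6). Without moderation limma called 0 (0 and 0), with 2725 genes at an unadjusted p under 0.05. Centring gave 95, omission of dim genes 63 and the replicate number as a block 67. Leaving out single arrays gave 12 to 71 called genes, 4 to 17 higher and 8 to 54 lower. In alternatives chosen after seeing the data, omission of the arrays with most liver transcripts gave 44 (27 and 17) and the slow fibre covariate 96 (26 and 70). Genes whose change in muscle differed from that in liver were 32, or 14 with the median of probe sets, and 8 to 25 when a mouse was left out. Those that differed from fat were 3, and 0 to 4 when a mouse was left out, with 1179 to 2514 at an unadjusted p under 0.05. The causes of these shifts were not tested. Fits that left out arrays also had fewer samples, and their counts differed by which array was left out. No called gene that is named changed direction in its gene value under any of these settings. Single probe sets could go the other way, as 1 each of Egr1, Prss23 and Ighm did without overlap. Omission of dim genes moved the median change of all genes to -0.07, and the other normalizations and models left it between -0.02 and 0.004. Without detection calls it is not known whether the lowest levels, such as that of Me3 in MKR muscle, lie above background.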
